A study of Mus musculus with 6 samples.

Results

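Cytochrome P450 families 1 to 3 were taken as every array probe whose gene symbol began with Cyp1, Cyp2 or Cyp3 and a subfamily letter, which gave 80 of 45281 probes, for 50 gene symbols in 14 subfamilies. Their transcripts were compared between 3 wild-type (WT) and 3 Creb3l3 KO mice, all male, on a C57BL/6 background and a normal chow diet, whose livers were collected after 24 h without food. The submitters state that littermates were used, without saying which mice shared a litter. CREBH, the product of Creb3l3, is a liver transcription factor made as a membrane protein and released by cleavage. Each mouse gave 1 liver RNA sample and 1 Illumina WG-6 bead array. The ages of the mice and the deleted part of the gene are not given in the sources used here. The design implies a single comparison, knockout against wild type after the fast.

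P450 enzymes of these families are haem proteins of the endoplasmic reticulum that insert oxygen into their substrates with electrons passed on by the reductase Por. Family 1 is known as the target of the aryl hydrocarbon receptor. Subfamilies 2a, 2b and 3a hold the classical targets of the nuclear receptors CAR and PXR, which sense foreign compounds. Subfamilies 2c and 2j hold enzymes that make epoxides of arachidonic acid, 2d holds steroid and drug hydroxylases, and Cyp2e1 oxidises ethanol and ketone bodies. In liver many members are confined to hepatocytes around the central vein, and several differ between the sexes. Most mouse members sit in clusters of close relatives. Of the 50 genes here, 13 lie on chromosome 19 (all Cyp2c), 13 on chromosome 7 (2a, 2b, 2e, 2f, 2g, 2r and 2s), 8 on chromosome 15 (Cyp2d), 6 on chromosome 5 (Cyp3a) and 6 on chromosome 4 (Cyp2j).

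The arrays were not equally bright, and this touches every value below. Detection at p under 0.05 was reached by 15504 to 16224 probes on the wild-type arrays, 11846 on the array of knockout mouse 1, 15867 on that of knockout mouse 2 and 4302 on that of knockout mouse 3. Across probes, which are not independent replicates, the array of knockout mouse 3 correlated with the others at Pearson's r of 0.738 to 0.752, against 0.964 to 0.991 among the other 5. Values are therefore those of the 5 arrays without knockout mouse 3 unless all 6 are named. On the log2 scale after background correction and quantile normalization, 46 member probes of 30 genes were bright enough to be tested. Their median deposited signal, in arbitrary units, was 1784, 1556 and 1296 in wild-type mice 1, 2 and 3, and 520, 1871 and 96.1 in knockout mice 1, 2 and 3. Knockout mouse 1 was thus dim and knockout mouse 3 close to background, so that differences on these arrays rest on the normalization. As a check of the labels, Creb3l3 gave 929 to 1201 units in the wild-type mice and 148, 283 and 87.9 in knockout mice 1, 2 and 3 (log2 change -2.32, adjusted p = 0.00271 in 5 arrays by limma, but -2.72 and 0.574 in 6), although the position of its probe relative to the deleted part is not given. Of 12 hepatocyte markers, 9 were detected on every wild-type array and on the arrays of knockout mice 1 and 2, among them Ttr and Apoa1. The probes of Fabp1, Fgb and Tat were near background everywhere.

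**Figure D1:**
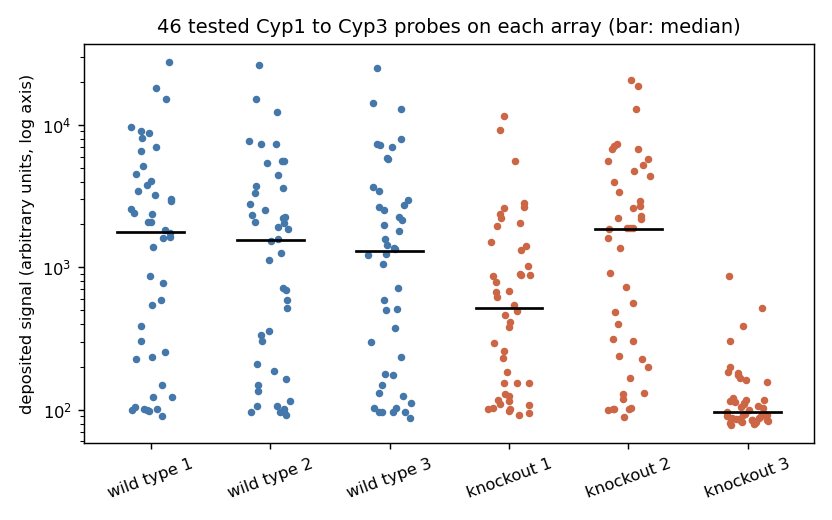
Deposited signal of the 46 tested member probes on each of the 6 arrays, on a log axis in arbitrary units, with 1 point per probe and a bar at the median. The medians lie between 1296 and 1871 on the wild-type arrays and that of knockout mouse 2, at 520 for knockout mouse 1 and at 96.1 for knockout mouse 3.

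No member probe passed the test. The P450 transcripts that stood apart most between the groups were Cyp2e1, Cyp2c67, Cyp2c54, Cyp2c44 and Cyp2d40, lower in the knockout mice by 0.46 to 0.55 on the log2 scale, and Cyp2c55, higher by 1.18. Of these, Cyp2e1 stood at -0.10 with cyclic loess normalization. In all 6 arrays Cyp2c67 stood at -0.35, Cyp2d40 at -0.08 and Cyp2c55 at 0.46, each with overlapping groups. By subfamily the tested probes of Cyp1a, Cyp2d and Cyp2e all lay below 0 and those of Cyp2b and Cyp3a all above it, while Cyp2c was split, but median scaling, which moved the median of all probes to -0.42, put the medians of Cyp2a, Cyp2b and Cyp3a at -0.45, 0.05 and -0.60. In all 6 arrays Cyp2b and Cyp3a each had 3 probes above 0 and 2 below, and Cyp2d 2 above and 6 below. In the 5 arrays limma called 0 of 46 probes higher and 0 of 46 lower at an adjusted p under 0.05, where 0.0627% and 0.279% of all 14345 tested probes were called. The smallest adjusted p of a member was 0.292. Before adjustment, 1 member probe was higher (2.17%, beside 4.66% of all tested probes) and 6 were lower (13%, beside 7.47%) at a limma p under 0.05. In all 6 arrays limma again called 0 higher and 0 lower, as it did for every other probe (0% of 14494), and before adjustment 0 member probes were higher (beside 0.552% of all) and 2 were lower (beside 3.3%), those of Cyp2e1 and Cyp2c44. The median log2 change of the members was -0.01 in 5 arrays and -0.21 in 6, beside -0.03 and -0.28 over all tested probes. By sign, 21 member probes lay above 0 and 25 below in the 5 arrays, where 45.3% and 54.7% of all probes did, and 14 above and 32 below in 6 arrays, where 27.3% and 72.7% did. In bulk liver, fewer cells of a type and less RNA per cell cannot be told apart.

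Of the 46 member probes, 8 were higher on both knockout arrays than on every wild-type array (17.4%, beside 12.9% of all tested probes), and 15 were lower (32.6%, beside 16.4%). With knockout mouse 3 included, 3 were higher (6.52%, beside 3.99%) and 10 were lower (21.7%, beside 13.4%). Both counts of lower probes hold Cyp2c38, which passed the filter through the wild-type arrays alone. Several probes share a gene, and paralogs may share probes' targets, so these shares carry no test. Relative to the wild-type mean, 17 probes were above it in both knockout mice 1 and 2, 17 below it in both, and 12 went opposite ways. Both knockout mice lay below wild type at a median of -0.24 and -0.34 for Cyp2c, and above it at 0.63 and 0.21 for Cyp2b and at 0.15 and 0.08 for Cyp3a. Medians for Cyp2d were 0.03 in knockout mouse 1 and -0.31 in knockout mouse 2.

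**Figure D2:**
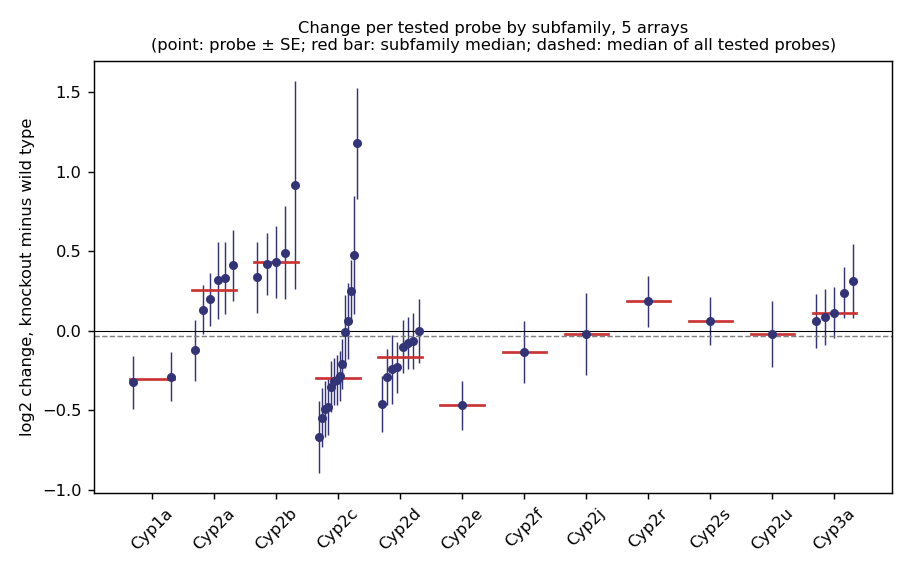
Log2 change, knockout minus wild type, of each of the 46 tested member probes in the 5 arrays, grouped by subfamily (points with SE, red bars at subfamily medians, dashed line at the median of all 14345 tested probes). All 5 Cyp2b and all 5 Cyp3a probes lie above 0, all 8 Cyp2d and both Cyp1a probes below it, and the 14 Cyp2c probes run from -0.67 to 1.18; median scaling instead puts the Cyp3a median at -0.60.

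The other 34 member probes, detected on fewer than 3 of these arrays, were not tested, and 24 of them were detected on none of the 5. Their signals lay between 79.3 and 133 units. For 20 genes no probe was tested: Cyp1a1, Cyp1b1, Cyp2a4, Cyp2b13, Cyp2b19, Cyp2c39, Cyp2c40, Cyp2c65, Cyp2c68, Cyp2d12, Cyp2d34, Cyp2g1, Cyp2j5, Cyp2j6, Cyp2j11, Cyp2j12, Cyp2j13, Cyp3a16, Cyp3a44 and Cyp3a57. Some of these are known as transcripts of other tissues (Cyp2g1 of the nose, Cyp2b19 of skin), some as female-biased in liver (Cyp2b13, Cyp3a16, Cyp3a44), and a bead probe at background does not show that a transcript is absent. Cyp2a4, close in sequence to Cyp2a5, was read at 91.5, 99.8 and 85.2 units in wild-type mice 1, 2 and 3 and at 93.1, 133 and 81.4 in the 3 knockout mice, and was detected in wild-type mouse 2 and knockout mouse 2.

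Family 1 is the aryl hydrocarbon receptor's battery. Cyp1a2, which oxidises caffeine and aromatic amines in central hepatocytes, had normalized log2 signals of 10.56, 10.45 and 10.50 in wild-type mice 1, 2 and 3, and 10.16 and 10.27 in knockout mice 1 and 2. Both knockout mice lay below all wild-type mice. The log2 change was -0.29 ± 0.15 (SE; adjusted p = 0.486), and its second probe gave -0.32 ± 0.17 (adjusted p = 0.478). With knockout mouse 3 the brighter probe stood at -0.07 and the groups overlapped, while the second stood at -0.27 and they did not. Cyp1a1, the inducible member of this family, was read at 83.5, 85.8 and 79.3 units in wild-type mice and 97.6, 82.6 and 88.7 in knockout mice, none of them detected. Of the receptor's and NRF2's targets outside the P450 family, 9 of 14 listed genes were tested, of which 0 were called, 8 lay above 0 and 1 below, with a median of 0.36 (-0.10 under median scaling, with 3 above and 6 below, and 0.0030 in all 6 arrays). The glutathione transferases Gsta1 (1.13 ± 0.30, adjusted p = 0.245) and Gstm1 (0.55 ± 0.19, adjusted p = 0.355) stood out in that list. For both, knockout mouse 2 was far brighter than any wild-type mouse, with 617 against 192 to 270 units for Gsta1 and 9313 against 4181 to 5721 for Gstm1. Under median scaling Gstm1 stood at -0.10, and in all 6 arrays Gsta1 stood at 0.35 and Gstm1 at 0.33, both with overlapping groups.

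Subfamily 2b had 5 tested probes of 3 genes, all above 0, with a median log2 change of 0.43, which was 0.09 in all 6 arrays with 3 above and 2 below. Cyp2b10, the classical target of CAR, had log2 signals of 10.90, 11.06 and 10.37 in wild-type mice and 11.07 and 11.15 in knockout mice 1 and 2. Both knockout mice lay above the wild-type mice, but knockout mouse 1 barely above wild-type mouse 2. The log2 change of 0.33 ± 0.22 (adjusted p = 0.562) was smaller than the wild-type SD of 0.36 (n = 3), and it turned to -0.24 in all 6 arrays and to -0.39 under median scaling. Cyp2b23, a neighbouring relative, was read at 546, 694 and 373 units in wild-type mice and 296, 722 and 82.3 in knockout mice, and its log2 change of 0.49 ± 0.29 (adjusted p = 0.52) turned to -1.05 in all 6 arrays. Its groups overlapped. Cyp2b9, a female-biased member, varied most among the wild-type mice, from 101, 164 and 125 units in the wild-type mice to 153, 128 and 81.2 in knockout mice 1, 2 and 3. Its log2 change of 0.92 ± 0.65 (adjusted p = 0.584) came from knockout mouse 1, which stood at 1.96 against the wild-type mean, while knockout mouse 2 stood at -0.12.

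Subfamily 2a gave a median of 0.26 over 6 tested probes in the 5 arrays, but -0.37 in all 6, with 2 probes above 0 and 4 below. Cyp2a5, the coumarin hydroxylase of mouse liver, was measured by 5 probes, 4 above 0 and 1 below, from -0.12 to 0.41. Of these probes 4 lay below 0 in all 6 arrays, from -0.91 to -0.17, and the brightest at 0.14. That brightest probe had 11.91, 12.05 and 11.77 in wild-type mice and 12.18 and 12.03 in knockout mice 1 and 2 (0.20 ± 0.17, adjusted p = 0.649). The groups overlapped there, since wild-type mouse 2 lay above knockout mouse 2. Cyp2a12, a testosterone hydroxylase, had 11.72, 11.63 and 11.69 against 11.86 and 11.76 (0.13 ± 0.15, adjusted p = 0.744). It was higher in each knockout mouse than in any wild-type mouse, by less than its standard error. Under median scaling Cyp2a5 stood at -0.47 and Cyp2a12 at -0.56. The wild-type mice were themselves spread for the 2a and 2b genes. Wild-type mouse 3 had the lowest signal of the 3 for Cyp2b10 (1426 against 2576 and 2326), Cyp2b23 (373 against 546 and 694) and all 5 Cyp2a5 probes.

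Subfamily 3a, whose Cyp3a11 is the main drug-oxidising P450 of mouse liver and a target of PXR, lay above 0 in all 5 tested probes, with a median of 0.11 that turned to -0.60 under median scaling. Cyp3a11 had 13.64, 13.85 and 13.60 in wild-type mice and 13.94 in both knockout mice 1 and 2, where it held rank 42 by signal on each array and so received the same normalized value. Both knockout mice thus lay just above wild-type mouse 2. The change was 0.24 ± 0.16 (adjusted p = 0.566), 0.04 in all 6 arrays and -0.15 under median scaling. The 3 probes of Cyp3a13 gave 0.09, 0.11 and 0.31, and Cyp3a25 gave 0.06 ± 0.17 (adjusted p = 0.903). Of 21 listed targets of CAR and PXR outside the P450 family, 18 were tested, 0 were called, and 10 lay above 0 and 8 below (median 0.15, or -0.47 under median scaling and -0.13 in all 6 arrays). Aldh1a7, an aldehyde dehydrogenase, stood at 0.82 ± 0.17 (adjusted p = 0.139) and Gsta2 at 1.26 ± 0.33 (adjusted p = 0.235). Both had overlapping groups in all 6 arrays, at 0.43 and 0.91. Aldh1a7 was called in 5 of 18 alternatives and stood at 0.055 under median scaling, and Gsta2 was called in 1. The receptors themselves, named here after their values were seen, lay slightly lower, with -0.35 ± 0.17 for CAR (Nr1i3, adjusted p = 0.454) and -0.24 ± 0.16 for PXR (Nr1i2, adjusted p = 0.559). In all 6 arrays CAR stood at -0.23 and PXR at -0.17, both with overlapping groups.

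Subfamily 2c was the largest, with 23 probes of 13 genes, of which 14 probes of 9 genes were tested. Of these 14, 10 lay below 0 and 4 above. On both knockout arrays 9 were lower than on every wild-type array and 1 was higher, beside 16.4% and 12.9% of all tested probes. Among the 9 was Cyp2c38, which passed the filter through the wild-type arrays alone, so the filter favoured a lower knockout value. The median was -0.30 in 5 arrays and -0.36 in 6, and -0.88 under median scaling. In the order of the genes along chromosome 19, the change was 1.18 for Cyp2c55 and 0.25 for Cyp2c29, then -0.32, -0.55, -0.21, -0.49 and -0.31 for Cyp2c38, Cyp2c67, Cyp2c37, Cyp2c54 and Cyp2c50, then 0.48 for Cyp2c70, and -0.48 for Cyp2c44, which stands last in that order. In all 6 arrays Cyp2c55 stood at 0.46, Cyp2c29 at -1.63 and Cyp2c70 at -0.06, each with overlapping groups, so the order of signs along the chromosome holds for the 5 arrays and was not tested.

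**Figure D3:**
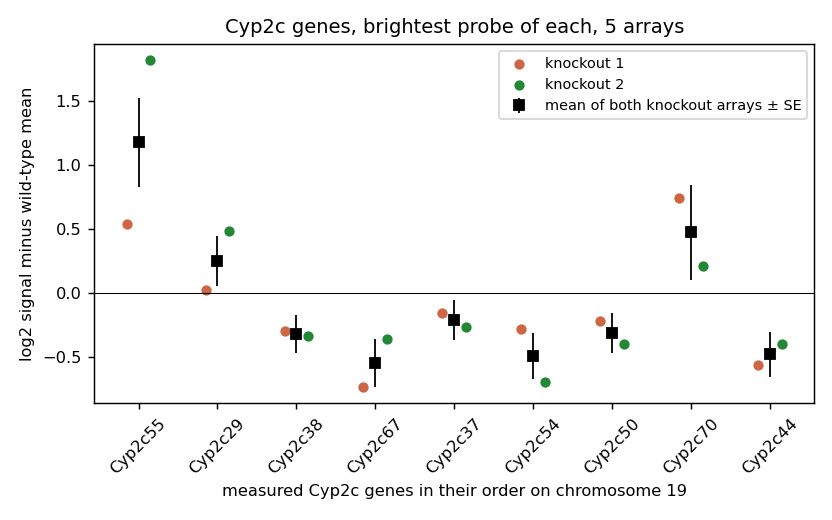
Log2 signal minus the wild-type mean for the brightest tested probe of each of the 9 measured Cyp2c genes, in their order along chromosome 19, for knockout mice 1 and 2 and for their mean with its SE. The 5 neighbouring genes from Cyp2c38 to Cyp2c50 lie between -0.55 and -0.21, whereas Cyp2c55 stands at 1.18. Cyp2c38 was detected on wild-type arrays alone and passed the filter through them. In all 6 arrays Cyp2c55 stood at 0.46 and Cyp2c29, here 0.25, at -1.63.

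The stretches before the start sites of 6 of these genes are shown so that close paralogs of the cluster can be set side by side. They are the 250 bases before the start in RefSeq's GRCm38.p6 table, read in the direction of the gene. Capitals mark TATAAA (the TATA box), AGGTCA (a nuclear receptor half-site) and CAAAGTCCA (a core bound by HNF4A), on either strand, and no AGGTCA match overlaps a CAAAGTCCA match here.
Cyp2c55 (chr19:39006769-39007018, plus strand): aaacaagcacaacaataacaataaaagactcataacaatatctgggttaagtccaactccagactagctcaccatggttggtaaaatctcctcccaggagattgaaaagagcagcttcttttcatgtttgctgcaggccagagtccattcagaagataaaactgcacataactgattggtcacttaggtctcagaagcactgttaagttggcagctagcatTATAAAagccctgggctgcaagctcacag
Cyp2c29 (chr19:39286835-39287084, plus strand): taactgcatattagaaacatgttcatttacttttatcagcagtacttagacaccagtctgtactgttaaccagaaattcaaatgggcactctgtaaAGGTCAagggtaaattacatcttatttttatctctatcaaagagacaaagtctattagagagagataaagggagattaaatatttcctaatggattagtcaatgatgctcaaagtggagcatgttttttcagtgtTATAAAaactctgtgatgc
Cyp2c38 (chr19:39463076-39463325, minus strand): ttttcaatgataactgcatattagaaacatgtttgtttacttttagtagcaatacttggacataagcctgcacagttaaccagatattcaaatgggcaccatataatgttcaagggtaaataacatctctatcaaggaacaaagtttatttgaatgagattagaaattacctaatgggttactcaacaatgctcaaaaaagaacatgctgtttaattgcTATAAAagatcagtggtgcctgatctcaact
Cyp2c67 (chr19:39649043-39649292, minus strand): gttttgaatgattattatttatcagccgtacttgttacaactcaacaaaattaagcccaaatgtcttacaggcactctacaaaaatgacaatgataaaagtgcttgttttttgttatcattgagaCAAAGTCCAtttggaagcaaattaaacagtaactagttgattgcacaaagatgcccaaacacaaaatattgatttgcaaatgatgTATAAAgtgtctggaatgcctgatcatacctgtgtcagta
Cyp2c37 (chr19:39992174-39992423, plus strand): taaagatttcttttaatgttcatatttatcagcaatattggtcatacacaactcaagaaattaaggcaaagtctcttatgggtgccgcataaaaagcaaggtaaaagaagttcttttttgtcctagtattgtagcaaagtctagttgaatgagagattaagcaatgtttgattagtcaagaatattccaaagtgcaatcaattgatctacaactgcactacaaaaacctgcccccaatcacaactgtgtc
Cyp2c50 (chr19:40089429-40089678, plus strand): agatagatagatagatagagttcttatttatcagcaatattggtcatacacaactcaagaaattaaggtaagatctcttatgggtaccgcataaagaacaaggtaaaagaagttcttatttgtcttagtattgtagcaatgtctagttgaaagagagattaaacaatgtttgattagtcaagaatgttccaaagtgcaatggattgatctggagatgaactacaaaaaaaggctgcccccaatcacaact

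In these windows Cyp2c37 and Cyp2c50, both lower in the knockout mice, shared 86% of the 250 bases in a global alignment, and Cyp2c29 and Cyp2c38, whose changes had opposite signs in the 5 arrays but both lay below 0 in all 6 and under median scaling, shared 74.8%. Cyp2c67 shared 64.4% with Cyp2c37 and 62.4% with Cyp2c50. Over windows from 250 bases before to 50 after the start, 42 of the 50 member genes had an entry. The half-site of the cyclic AMP response element, TGACG, the kind of sequence CREB-family factors bind, was found on either strand in 2 of 42 member promoters (4.76%, Cyp2j5 and Cyp2j9) and in 20.8% of all 32851 promoters of that length. The full palindrome TGACGTCA, which contains that half-site, was in 0 of 42 and in 1.79% of all. CAAAGTCCA was in 7 of 42 (16.7%, beside 0.475% of all), in Cyp2c40, Cyp2c65, Cyp2c67, Cyp2c68, Cyp2c70, Cyp3a11 and Cyp3a16. AGGTCA was in 38.1% of member promoters and 16.3% of all, and TATAAA in 50% and 13.6%. Members that descend from shared ancestors share such matches, and a match is a description of letters and not of binding.

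Cyp2c67, in the epoxygenase subfamily, had log2 signals of 11.10, 10.91 and 11.22 in wild-type mice and 10.34 and 10.72 in knockout mice 1 and 2. Both knockout mice lay below all wild-type mice on both of its probes, at -0.55 ± 0.19 (adjusted p = 0.345) and -0.67 ± 0.23 (adjusted p = 0.349). With knockout mouse 1 as the lone knockout array the probes stood at -0.73 and -0.88, values that rest on 1 dim knockout array. Over 18 alternatives, which do not hold the weighted fit of 6 arrays, the adjusted p of the brighter probe rose to 0.915. In all 6 arrays the groups overlapped. With array weights in 6 arrays the brighter probe stood at -0.72 (limma adjusted p = 0.0103). That fit weighted knockout mice 1, 2 and 3 at 3.07, 0.42 and 0.03, so it rests mostly on knockout mouse 1. Cyp2c54 had 9.24, 9.28 and 9.28 in wild-type mice and 8.98 and 8.57 in the knockout mice, so that the wild-type mice lay within 0.04 of each other and both knockout mice below them (-0.49 ± 0.18, adjusted p = 0.362). Cyp2c44, which RefSeq now names Cyp2c23, had 11.34, 11.01 and 11.29 against 10.65 and 10.81 (-0.48 ± 0.17, adjusted p = 0.362), and in all 6 arrays it stood at -0.56 with no overlap.

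Cyp2c37 and Cyp2c50 are close relatives and neighbours of Cyp2c54, and probes may not separate their transcripts. The brightest probe of Cyp2c50 had 12.75, 12.77 and 12.88 in wild-type mice and 12.58 and 12.40 in the knockout mice (-0.31 ± 0.16, adjusted p = 0.474). The 2 brighter probes of Cyp2c37 gave -0.21 ± 0.16 (adjusted p = 0.598) and -0.28 ± 0.16 (adjusted p = 0.493), again with both knockout mice below all wild-type mice. A further, dim probe of each gene overlapped between the groups and stood at -0.0059 for Cyp2c37 and 0.06 for Cyp2c50, while a probe of Cyp2c50 between these in signal stood at -0.35 ± 0.16 (adjusted p = 0.432). Cyp2c38 was read at 99.1, 96.8 and 96.6 units in wild-type mice, all detected, and at 92.3, 88.7 and 78 in knockout mice, none detected. Its wild-type level is so near background that no fold can be given (log2 difference -0.32 ± 0.15, adjusted p = 0.445).

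Cyp2c55, a member known to be inducible through CAR and PXR, had the largest change of any member in the 5 arrays, but not in all 6, where it stood at 0.46 with overlapping groups (adjusted p = 0.709). Before normalization it was read at 122, 115 and 103 units in wild-type mice and at 108, 240 and 82 in knockout mice 1, 2 and 3. Knockout mouse 2 stands out, and the dim knockout mouse 1 lies within the wild-type range before normalization. After it the log2 signals were 5.34, 5.39 and 4.92 against 5.75 and 7.03 (1.18 ± 0.35, adjusted p = 0.292). With knockout mouse 2 as the lone knockout array the log2 change of Cyp2c55 was 1.90, a value that rests on 1 knockout mouse. Over the alternatives its adjusted p rose to 0.803. Cyp2c29, abundant in liver and also a CAR target, was read at 1620, 1123 and 1056 units in wild-type mice and 461 and 1903 in knockout mice 1 and 2 (0.25 ± 0.20, adjusted p = 0.619), with overlapping groups, and turned to -1.63 in all 6 arrays, where knockout mouse 3 had 84 units and was not detected. Cyp2c70, which makes muricholic acids in rodents, differed within the wild-type group more than between the groups, with 1395, 520 and 507 units in wild type (log2 change 0.48 ± 0.37, adjusted p = 0.62; -0.06 in all 6 arrays).

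Subfamily 2d had 8 tested probes of 6 genes, all below 0 and with a median of -0.17, 3 of them lower on both knockout arrays than in any wild-type mouse, beside 16.4% of all tested probes. Without knockout mouse 2 that median was 0.03, and without knockout mouse 1 it was -0.30. Cyp2d9, a testosterone hydroxylase typical of male liver, had 13.85, 13.51 and 13.81 in wild-type mice and 13.48 and 13.38 in knockout mice 1 and 2, so that knockout mouse 1 lay just under wild-type mouse 2 (-0.29 ± 0.17, adjusted p = 0.52). Cyp2d40 had 9.03, 8.99 and 8.99 against 8.75 and 8.34 (-0.46 ± 0.18, adjusted p = 0.385), and stood at -0.08 in all 6 arrays, where its groups overlapped. The brightest Cyp2d26 probe gave -0.23 ± 0.16 (adjusted p = 0.569), and its other probes -0.07 and -0.0021, with overlapping groups. Cyp2d10, Cyp2d13 and Cyp2d22 lay at -0.08, -0.24 and -0.10 with overlapping groups.

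Among other genes known to be higher in male than in female liver, 18 of 23 listed were tested, 0 were called, and 13 lay below 0 and 5 above (median -0.17). Of the 18, 7 were lower and 1 higher with no overlap, beside 16.4% and 12.9% of all tested probes. In all 6 arrays 3 were lower and 0 higher with no overlap, beside 13.4% and 3.99%, and the median was -0.44. Under median scaling of the 5 arrays the median was -0.89. Cyp7b1, an oxysterol hydroxylase, stood at -2.02 ± 0.38 (adjusted p = 0.115) and Egfr at -0.91 ± 0.20 (adjusted p = 0.16). With all 6 arrays they stood at -1.28 and -0.60 with overlapping groups, and they were called in 5 and 2 of 18 alternatives. Wild-type mouse 1 stood apart for Cyp7b1, at 5623 units against 1882 and 2392 in the other wild-type mice. It was also the brightest wild-type mouse for Egfr (1885 against 1085 and 1395), Elovl3 (2911 against 1063 and 1382) and Serpina12 (714 against 237 and 352). For Mup3, which lay above 0, it was not. The part of this spread in the changes of the list was not tested. Of 21 female-biased genes 8 were tested, 0 were called, and 2 lay above 0 and 6 below (median -0.22). Cyp17a1, an enzyme of steroid synthesis, stood at 1.38 ± 0.48 (adjusted p = 0.349; 0.26 with overlapping groups in all 6 arrays, and called in 1 of 18 alternatives) and Cyp39a1 at -0.62 ± 0.25 (adjusted p = 0.393).

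Cyp2e1, the ethanol-oxidising P450 that is known to rise in fasting and diabetes, was among the brightest probes of each array. It was read at 27636, 26187 and 25032 units in wild-type mice and at 11559, 20569 and 870 in knockout mice 1, 2 and 3. Ordered by signal among all probes of an array it held ranks 4, 8 and 10 in wild-type mice 1, 2 and 3, and ranks 27 and 32 in knockout mice 1 and 2. Its log2 signals of 14.71, 14.64 and 14.58 against 14.22 and 14.13 did not overlap, and the change was -0.47 ± 0.15 (adjusted p = 0.333). In all 6 arrays it was -0.50 ± 0.19 (adjusted p = 0.653). Cyclic loess in place of quantile normalization moved the change to -0.10 in 5 arrays and to 0.98 in 6. The cause of that move was not tested. Cyp2f2, an enzyme of periportal hepatocytes and airway cells, had 12.87, 12.37 and 12.75 against 12.57 and 12.49, with overlapping groups (-0.14 ± 0.19, adjusted p = 0.797 and 0.04 in all 6 arrays).

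Many P450 members are pericentral transcripts, and other pericentral genes were read for comparison. The member probes themselves went both ways, with 21 above 0 and 25 below in the 5 arrays. Of the 15 pericentral genes listed, 10 were tested and 0 were called. All 10 lay below 0 in the 5 arrays (median -0.22, or -0.87 under median scaling), beside 54.7% of all tested probes. In 6 arrays 8 of the 10 did, beside 72.7% of all tested probes. In the 5 arrays 5 were lower with no overlap, beside 16.4% of all tested probes. The fatty aldehyde dehydrogenase Aldh3a2 stood at -0.70 ± 0.23 (adjusted p = 0.325). Of 18 periportal genes 17 were tested, with 0 called higher and 1 lower, 11 above 0 and 6 below (median 0.13, or -0.56 under median scaling). The one called was the gluconeogenic Pck1 at -1.73 ± 0.21 (adjusted p = 0.0227; -3.19 and 0.653 in all 6 arrays), and Aldh1b1, an aldehyde dehydrogenase, stood at 1.67 ± 0.28 (adjusted p = 0.0661, called in 7 of 18 alternatives).

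The remaining measured members were dim. Cyp2j9, the one tested gene of the epoxygenase subfamily 2j, had 234, 148 and 150 units in wild-type mice and 116, 199 and 84 in knockout mice (-0.02 ± 0.26, adjusted p = 0.981). Cyp2r1, the vitamin D hydroxylase of liver, had 97.4, 96.4 and 96.4 units against 100.4, 100.4 and 87.4 (0.18 ± 0.16, adjusted p = 0.655). Cyp2s1 (0.06 ± 0.15, adjusted p = 0.882) and Cyp2u1 (-0.02 ± 0.21, adjusted p = 0.979) were each detected on 2 wild-type arrays and 1 knockout array. The signals of Cyp2r1, Cyp2s1 and Cyp2u1 lay near background.

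**Figure D4:**
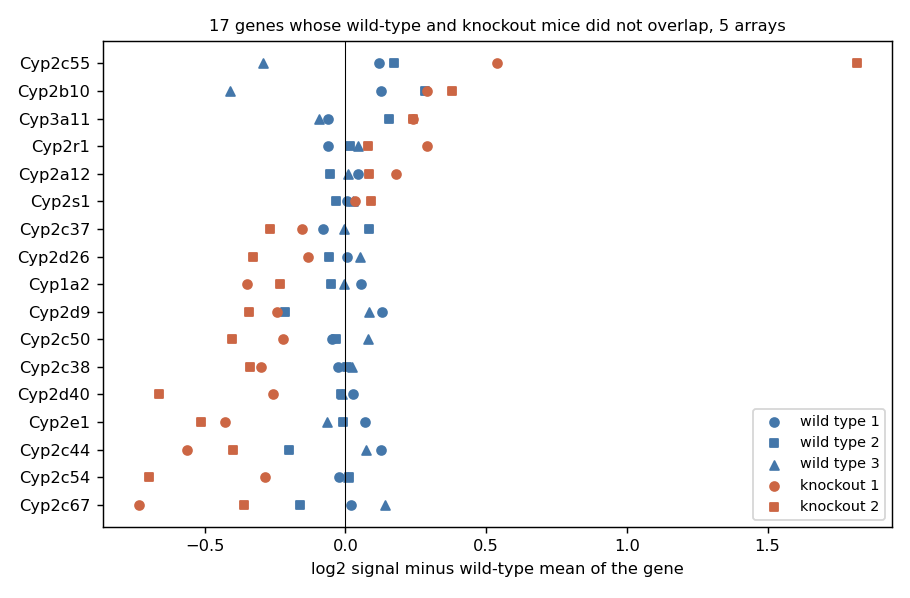
Normalized log2 signal of each of 5 mice minus the wild-type mean of the gene, for 17 of the 30 tested genes. In these the brightest tested probe did not overlap between the groups. Of the 30, 11 were lower and 6 higher in the knockout, where 16.4% and 12.9% of all tested probes were. Cyp2c55 of knockout mouse 2 stands at 1.82, and all other points lie between -0.73 and 0.54. Cyp2c38, among the 11 lower, was detected on wild-type arrays alone and passed the filter through them. Cyp2r1 and Cyp2s1, among the 6 higher, lay near background.

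The partners that P450 enzymes need were measured on the same arrays. Of 21 listed genes for electron transfer, haem synthesis and haem breakdown, 20 were tested, 0 were called, and 11 lay above 0 and 9 below (median 0.02). Por, the reductase that serves all these enzymes, stood at -0.79 ± 0.22 (adjusted p = 0.255), with 1303, 1277 and 1040 units in wild-type mice and 246, 970 and 91.2 in knockout mice, and did not overlap. It was called in 1 of 18 alternatives. Cyb5r1, a cytochrome b5 reductase family member, stood at 0.43 ± 0.19 (adjusted p = 0.411). Of 29 listed regulators of P450 genes 22 were tested, with 0 called higher and 1 lower, and 11 on each side of 0 (median -0.01). The one called was the nuclear receptor Ppara (-1.24 ± 0.17, adjusted p = 0.0345; -1.25 and 0.653 in all 6 arrays), at 144, 127 and 131 units in wild-type mice and 96, 103 and 77.5 in knockout mice. It was detected on the array of knockout mouse 2 but not on those of knockout mice 1 and 3, so its size there is set near background. It was called in 5 of 18 alternatives and ran down in size to -0.37. The liver factor Foxa3 stood at 0.66 ± 0.21 (adjusted p = 0.322; -0.09 under median scaling, 0.06 in all 6 arrays).

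Markers of other liver cells were read beside these results. Of 10 Kupffer cell markers 9 were tested, 8 above 0 and 1 below (3 and 6 under median scaling), of which 4 were higher with no overlap (beside 12.9% of all tested probes) and 0 were called. With knockout mouse 3 added, 3 lay above 0 and 6 below, 0 were apart and the median was -0.76. In the 5 arrays the mean log2 signal over all probes of the 10 listed genes, tested or not, was 6.48 to 6.63 in wild-type mice. It was 6.68 and 6.82 in knockout mice 1 and 2. Summed signals of red cell and blood genes, before normalization, were 92912 to 109487 units in wild type, 16062 in knockout mouse 1, 116604 in knockout mouse 2 and 4629 in knockout mouse 3. These sums also carry the dimness of an array. After normalization their mean log2 signal was 9.74 to 9.94 in wild-type mice and 8.95 and 9.96 in knockout mice 1 and 2. For endothelial markers the mean log2 signal was 6.00 to 6.04 in wild-type mice and 6.00 and 6.05 in knockout mice 1 and 2, for stellate markers 5.73 to 5.85 and 5.68 and 5.90, and for cholangiocyte markers 5.04 to 5.22 and 5.10 and 5.23. These means took in every probe of the listed genes, also those near background. On every wild-type array 5 of 10 stellate and 3 of 10 cholangiocyte genes were detected, so similar means say little about these cells. Lymphocyte markers had 2 tested genes and intestinal and pancreatic ones 2, with 0 called in each. Their part in the P450 values was not tested.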

How the data were processed

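Each of the 6 deposited array tables holds, per the file headers, an average bead signal for each probe, an intensity on a linear scale and not normalized, and a detection p-value. Per the submitters' processing notes these came from BeadStudio 3. The authors' value table holds normalized intensity on a linear scale with column medians of 91.6 to 91.7. How it was made is not stated, its columns of wild-type replicates 2 and 3 are exchanged relative to the array tables, and it served as an alternative. Here limma 3.58.1 (R 4.3.3) corrected the background by normexp, taking the negative controls from the detection p-values, then added 16, applied quantile normalization and took log2. Tests used lmFit and eBayes, two-sided, on probes detected (p under 0.05) on 3 or more arrays, 14345 in 5 arrays and 14494 in 6. P-values were adjusted by Benjamini-Hochberg over all of these, and an adjusted p under 0.05 was called. The steps were tested on simulated data. A gene was represented by its brightest tested probe. The members and lists were chosen with earlier results of these data known. Named members were up to 8 genes of each direction with the largest change among those whose groups did not overlap, the brightest of each subfamily, and Cyp1a1, Cyp1a2, Cyp2a5, Cyp2b10, Cyp2c29, Cyp2d9, Cyp2e1, Cyp2f2, Cyp2r1 and Cyp3a11 whatever their values, with up to 4 genes of smallest p from each other list, of which 1 is not reported here. Other members are given by value to complete their subfamily and were chosen after their values were seen. GRCm38.p6 gave chromosome and order. Probe sequences were not used here, so probes of close paralogs may share transcripts. Promoters were aligned with Biopython 1.88 and figures drawn with matplotlib 3.10.9. The number of mice limits the precision.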

Additional observations from a re-analysis of the deposited data

How the results depend on the processing

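In the 5 arrays, 0 member probes were called under every alternative run that kept both knockout mice, and 0 to 2 when each mouse was left out. The replicate block gave 0 as well, also with wild-type replicates 2 and 3 exchanged. In 6 arrays a trended and robust variance gave 1 member probe (Cyp2e1), and leaving out each mouse gave 0. Array weights gave 8 of 46, beside 2832 of all 14494 tested probes. That fit weighted knockout mice 1, 2 and 3 at 3.07, 0.42 and 0.03, so it rests mostly on the dim knockout mouse 1. Over all probes the 49 calls in 5 arrays became 83 with cyclic loess (25 higher, 58 lower), 4 with median scaling, 85 with no background correction, 108 with an offset of 50, 1 with no filter, 83 with the authors' value table, 122 with a trended and robust variance, 32 with array weights and 0 in all 6 arrays, and ran from 9 to 2234 when each mouse was left out. The 0 calls in 6 arrays became 3, 5 and 2832 with cyclic loess, trended variance and array weights, and ran from 0 to 49 when each mouse was left out. Median scaling moved the share of member probes above 0 from 45.7% to 13%, and that of all probes from 45.3% to 10.3%. Under it Cyp2a12 stood at -0.56, Cyp2a5 at -0.47, Cyp2b10 at -0.39, Cyp2c29 at -0.49, Cyp3a11 at -0.15, Foxa3 at -0.091 and Gstm1 at -0.10. In all 6 arrays Cyp2b10 stood at -0.24, Cyp2c29 at -1.63, Cyp2f2 at 0.036, Cyp2s1 at -0.037 and Cyp2u1 at 0.31. Cyp2j9 and Cyp2u1, at -0.022 and -0.019, turned to 0.0015 and 0.054 with array weights and to 0.014 and 0.043 with cyclic loess, and ran from -0.19 to 0.22 and from -0.17 to 0.13 when each mouse was left out. Cyp2u1 stood at 0.0050 with no background correction, 0.0055 with the authors' value table and 0.10 with the exchanged replicate block, and had no value under a detection p of 0.01 or without 3 of the mice. The cause of these turns was not tested. Same-numbered mice deviated together at r of -0.045, -0.048 and 0.037, which shows no pairing by number. With 3 arrays per group, among them the dim one of knockout mouse 3, such values cannot settle whether mice were paired. The replicate block changed the 49 calls to 47. The files name no slide, and a block for it was not run. Signal over background limited members under 133 units, and on the array of knockout mouse 3, 30 of the 46 tested member probes were detected.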
